A study of Mus musculus with 6 samples.

Results

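The 32 genes described here are those of cholesterol synthesis, uptake and efflux, taken by symbol from a fixed list, out of 24411 genes with a value in every library. All 32 were found and all passed the filter on low counts in each of the 3 fits. The list holds 8 enzymes that lead from acetyl-CoA to farnesyl and geranylgeranyl pyrophosphate, 11 enzymes of squalene and sterol formation, 6 regulators, 4 genes of uptake and intracellular transfer, and 3 genes of efflux and storage. RNA came from whole mouse brain of 2 genotypes. Control mice were NG2CreERTM;Rpl22HA/+ and knockout mice were NG2CreERTM;Ank3F/F;Rpl22HA/+, named AnkG icKO in the labels and icKO here. All mice, controls included, therefore carried the Cre driver and 1 HA-tagged copy of the ribosomal protein gene Rpl22, and all received tamoxifen (100 mg/kg per day for 5 days) at 8 weeks of age and were analysed 1 month later. The HA tag allows ribosomes of cells in which Cre acted, with the RNA bound to them, to be immunoprecipitated (IP), and input is the homogenate RNA before that step. There was 1 input library of each genotype and 2 IP libraries of each, 4 groups in all, and each library came from 3 pooled brains. The titles call the IP libraries biological replicates, and 1 icKO IP library carries cKO in its title and AnkG icKO as its genotype. A p-value between the IP groups rests on the spread between 2 such pools per group, steadied by the spread shared across genes. In IP against input, the spread also takes in how enrichment differed between the genotypes. For the difference of changes, each lone input is taken to vary like the IP pairs. NG2 (Cspg4) marks oligodendrocyte precursors and is also made by pericytes. The driver is therefore specific neither to mature oligodendrocytes nor to the oligodendrocyte lineage, although the labels call the cells oligodendrocytes.

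Library totals ran from 18968806 to 23930812 counts. Chi-square per degree of freedom, 1 where libraries differ by sampling alone, was 2.19 between the control IPs and 2.13 between the icKO IPs. It was 5.63 between the control and icKO inputs and 73.1 between replicate 1 of the control IP and of the icKO IP. All libraries were kept as separate samples, as titled. A value above 1 does not show whether the spread came from the mice or from library preparation. Ank3, the targeted gene, was lower in the icKO IP by 0.23 on the log2 scale (-0.23 ± 0.02 SE, adjusted p = 1.31e-10, edgeR's quasi-likelihood F test), and was 0.45 when scaled to mature oligodendrocyte markers. The count covers the whole gene, and no value inside a deleted part was at hand, so it does not measure how much of Ank3 was lost. All 20 mature oligodendrocyte markers were higher in the IP than in input (median log2 2.57). So were all 12 precursor markers (3.99), 8 markers of newly formed oligodendrocytes (3.36) and 10 pericyte and smooth muscle markers (3.30). Lower were 12 of 12 neuron, 11 of 12 astrocyte, 11 of 12 microglia, 7 of 10 endothelium and 5 of 6 choroid plexus and ependyma markers. The astrocyte, endothelium, and choroid plexus and ependyma lists each had 1 marker that was higher. None of these markers was at 0 in all libraries. Between genotypes, 19 of 20 mature oligodendrocyte markers fell in the icKO IP (median log2 -0.71), as did 10 of 12 precursor markers (-0.32) and 10 of 10 pericyte and smooth muscle markers (-0.92), while 7 of 12 astrocyte markers rose and 2 fell (0.26). Neuron markers rose in 6 of 12 and fell in 2, microglia markers rose in 2 of 12 and fell in 2, endothelium markers rose in 1 of 10 and fell in 2, choroid plexus and ependyma markers rose in 1 of 6 and fell in 1, and 7 of 8 markers of newly formed oligodendrocytes fell. In bulk RNA, fewer cells of a type and less RNA per cell cannot be told apart.

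Cholesterol is made from acetyl-CoA through mevalonate, isoprenoid pyrophosphates, squalene and lanosterol. Transcription of the pathway is driven by SREBP factors (Srebf1, Srebf2), which SCAP escorts to the Golgi for cleavage and INSIG proteins hold back when sterol is plentiful. Lipoprotein receptors bring cholesterol in, NPC1 and NPC2 release it from lysosomes, and the LXR targets ABCA1 and ABCG1 export it. Myelin is rich in cholesterol, and brain cholesterol is made almost wholly within the brain.

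The members were well detected in every group. Per kilobase of exon, the highest in the control IP was Lrp1, a large endocytic receptor of lipoproteins, at 153 CPM per kb (CPM, library-scaled counts with TMM factors over the 6 libraries). It was followed by Hmgcs1, which makes the substrate of the mevalonate step, at 64.4 CPM per kb, and by Srebf2, the main SREBP gene of cholesterol synthesis, at 32.9 CPM per kb. The lowest was Tm7sf2, a sterol reductase, at 1.20 CPM per kb. Together the 32 genes took 0.514% of all counts in control IP replicate 1 (95% Wilson interval 0.511 to 0.517%) and 0.511% in replicate 2, 0.472% (0.469 to 0.475%) and 0.479% in the icKO IPs, 0.226% (0.224 to 0.228%) in the control input and 0.241% (0.239 to 0.244%) in the icKO input, intervals that cover counting error only. The IP shares were lower in icKO than in control and the input shares were higher. Lrp1 alone gave 2724 of the summed 5090 CPM of the members in control IP replicate 1.

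**Figure D1:**
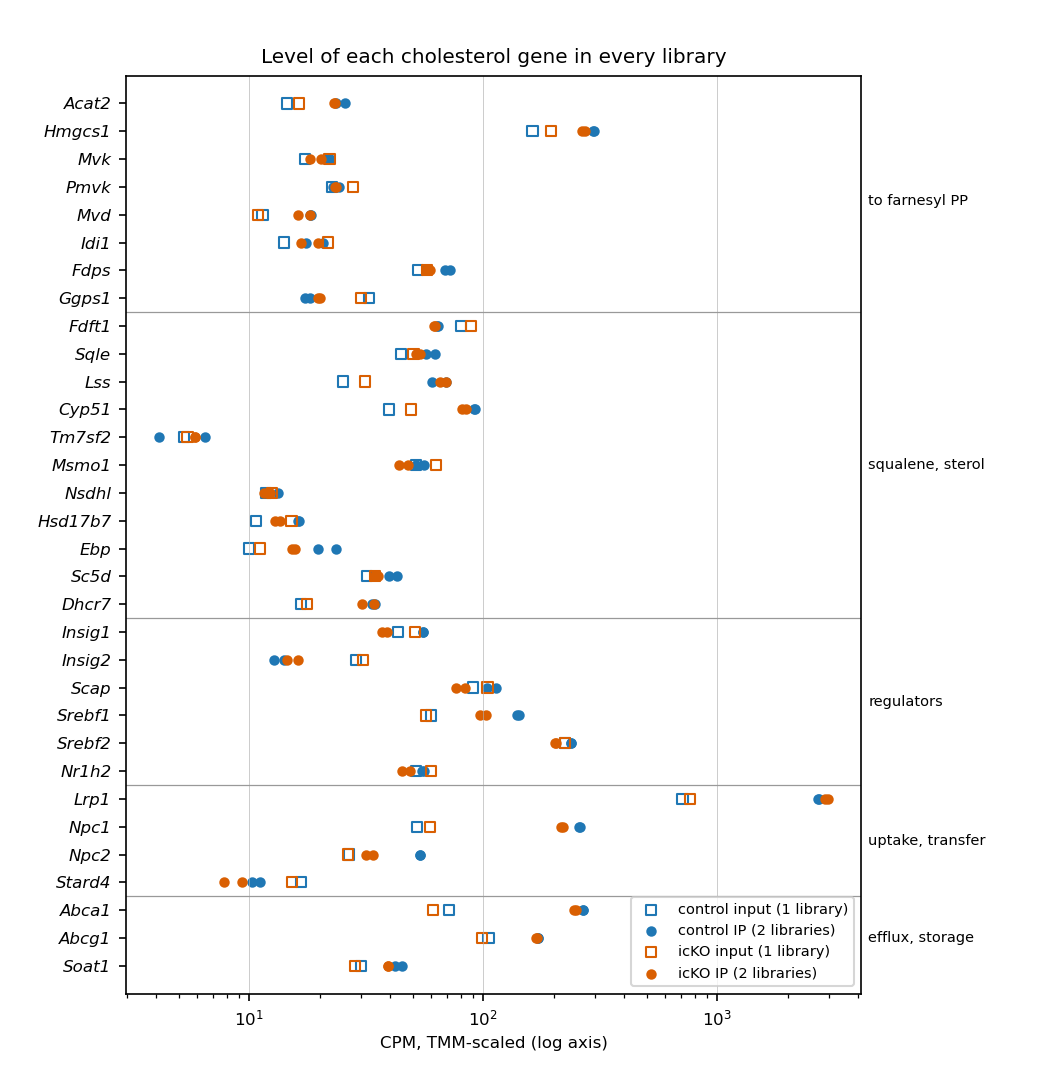
Level of the 32 genes in every library, in CPM with TMM factors on a log axis; open squares are inputs, filled points are IP libraries, and genes are grouped by role. The filled points of Lrp1, Npc1 and Abca1 sit far to the right of their squares, while those of Insig2, Ggps1 and Stard4 sit to the left of theirs.

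The start regions of these genes were examined for letters they share. RefSeq windows of 300 bases (250 before and 50 after a start, build GRCm38.p6) were given for 26 of the 32 genes. Fdps, Fdft1, Sqle, Abcg1, Npc1 and Stard4 had none and were not examined. The CCAAT box, the letters CCAAT on either strand, which NF-Y binds, was in at least 1 window of 15 of 16 synthesis genes with a window (93.8%), against 41.1% of 27025 genes. It was in 21 of the 26 members (80.8%), in 10 of 13 members that fell in the icKO IP (76.9%) and in 11 of the 13 others (84.6%), so it was common in both sets. The letters TCACNCCAC, close to a classical sterol response element, were in 1 member, Hmgcs1, and in 1.44% of all genes, and 0 matches of the 2 motifs overlapped. Looser forms of that element were not searched, so a window without these letters may still hold one. The windows below, cut before the annotated start of the gene, are shown because they hold the one such match (Hmgcs1), the synthesis gene with the largest fall (Ebp), the INSIG pair, whose log2 changes had opposite signs (Insig1, and Insig2, which did not pass) and the member with the largest fall (Npc2). Capitals mark CCAAT or its reverse complement and, in Hmgcs1, also TCACCCCAC. They are chr13:119690101-119690350 (plus strand), chrX:8193513-8193762 (minus), chr5:28071162-28071362 (plus), chr1:121332590-121332839 (minus) and chr12:84773153-84773362 (minus), each written 5′ to 3′ on the gene's strand.
Hmgcs1: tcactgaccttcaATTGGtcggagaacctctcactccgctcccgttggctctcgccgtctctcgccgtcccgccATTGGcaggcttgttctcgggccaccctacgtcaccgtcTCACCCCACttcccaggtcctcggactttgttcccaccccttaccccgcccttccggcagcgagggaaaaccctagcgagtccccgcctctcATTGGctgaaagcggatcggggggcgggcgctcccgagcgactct
Ebp: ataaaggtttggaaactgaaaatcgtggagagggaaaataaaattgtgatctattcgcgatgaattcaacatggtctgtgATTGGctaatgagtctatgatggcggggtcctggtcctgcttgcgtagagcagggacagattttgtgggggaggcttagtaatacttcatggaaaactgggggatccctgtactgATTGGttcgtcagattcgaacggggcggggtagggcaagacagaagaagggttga
Insig1: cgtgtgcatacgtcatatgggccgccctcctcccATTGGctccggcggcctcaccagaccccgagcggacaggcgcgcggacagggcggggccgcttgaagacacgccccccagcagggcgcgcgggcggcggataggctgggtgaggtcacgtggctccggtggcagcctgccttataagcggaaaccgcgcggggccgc
Insig2: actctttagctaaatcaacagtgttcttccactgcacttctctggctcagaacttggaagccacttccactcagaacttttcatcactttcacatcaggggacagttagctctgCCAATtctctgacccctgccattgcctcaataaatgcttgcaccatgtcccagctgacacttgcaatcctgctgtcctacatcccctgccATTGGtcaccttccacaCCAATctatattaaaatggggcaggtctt
Npc2: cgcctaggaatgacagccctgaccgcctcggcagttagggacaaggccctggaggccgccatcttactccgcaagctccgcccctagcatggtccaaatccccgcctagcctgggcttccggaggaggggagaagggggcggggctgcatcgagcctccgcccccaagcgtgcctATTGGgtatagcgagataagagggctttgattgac
Shown are 3 CCAAT matches for Hmgcs1, 2 for Ebp, 1 for Insig1, 3 for Insig2 and 1 for Npc2. For Insig2 only window 1 is shown, and its windows 2 and 3, at other starts, held 0 matches. A match describes letters only.

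IP was first compared with input to see which of the genes the tagged ribosomes carried above their homogenate level. Over both genotypes, 15 of 32 genes were higher in the IP and 4 were lower, with a median log2 of 0.20 against 0.01 over all genes. Of 15451 genes tested, 34.8% were higher and 35.1% lower, 70.0% in all (edgeR's quasi-likelihood F test, Benjamini-Hochberg adjusted p under 0.05). The counts rested on single inputs: 22 were higher and 4 lower without the icKO input, and 14 higher and 10 lower without the control input.

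The 3 largest values were those of uptake and efflux genes. Npc1, the lysosomal membrane protein that passes cholesterol out of lysosomes (chromosome 18, 12189692 to 12236400; gene coordinates here and below are those of GENCODE on mm10), was at 52.3 and 59.1 CPM in the control and icKO inputs, 256 and 260 CPM in the control IPs, and 216 and 220 CPM in the icKO IPs. Every IP library lay far above both inputs, and the log2 of IP over input was 2.08 ± 0.10 (SE). Abca1, the exporter that loads cholesterol onto apolipoproteins (chromosome 4, 53030787 to 53159895), was at 71.4 and 60.9 CPM in the control and icKO inputs, 267 and 268 CPM in the control IPs, and 249 and 244 CPM in the icKO IPs. Its log2 of IP over input was 1.96 ± 0.07. Lrp1 (chromosome 10, 127538161 to 127621148) was at 709 and 762 CPM in the inputs, 2724 and 2687 CPM in the control IPs, and 2884 and 2957 CPM in the icKO IPs, a log2 of 1.93 ± 0.08 over input. For Npc1, Abca1 and Lrp1, edgeR gave adjusted p = 8.02e-08, 1.54e-08 and 2.71e-08. Abcg1, a second exporter (0.73), Npc2, the soluble lysosomal partner of NPC1 (0.65), and Soat1, which esterifies cholesterol for storage (0.49), were higher too. Stard4, a soluble sterol carrier, was lower (-0.74 ± 0.12).

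Among synthesis enzymes 8 of 19 were higher in the IP and 2 were lower (median 0.19), where 34.8% of all genes were higher and 35.1% lower. The median was 0.42 without the icKO input and 0.013 without the control input. Those higher were Lss, the lanosterol-forming cyclase (1.22 ± 0.10), Cyp51, the lanosterol demethylase (0.97 ± 0.10), Dhcr7, the last reductase of the Kandutsch-Russell route (0.94 ± 0.10), Ebp, the sterol isomerase (0.79), Mvd, the mevalonate pyrophosphate decarboxylase (0.67), Hmgcs1 (0.65), Acat2, the cytosolic thiolase of the first step (0.62), and Sqle, the squalene epoxidase (0.23). The Sqle call had an adjusted p of 0.0491 (edgeR) and was lost without any 1 library except the icKO input, with library totals (0.16, adjusted p = 0.207) and with DESeq2 (adjusted p = 0.103). Lower were Ggps1, which makes geranylgeranyl pyrophosphate outside the sterol branch (-0.75), and Fdft1, the squalene synthase (-0.43). Of the regulators, Srebf1, the SREBP gene tied to fatty acid as well as sterol genes, was higher (1.02 ± 0.10) and Insig2 was lower (-1.05 ± 0.10).

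Within genotypes the pattern was not equal. In the 4-group fit, where each lone input is taken to vary like the IP pairs, 22 members were higher in the control IP than in the control input and 14 were higher in the icKO IP than in the icKO input, with 4 and 10 lower. Over 15936 genes, 34.4% were higher and 33.9% lower in control, and 34.7% were higher and 34.8% lower in icKO. The members' median log2 was 0.43 in control and 0.04 in icKO. Insig1, the SREBP-induced retention protein, was at 0.36 in control and -0.43 in icKO, and Scap was at 0.27 and -0.38. Both passed in each genotype, in opposite directions. Hsd17b7, a sterol ketoreductase, was at 0.61 and -0.20, where the second did not pass (adjusted p = 0.195, edgeR). Abca1 (1.91 and 2.02), Lrp1 (1.93 and 1.94) and Abcg1 (0.70 and 0.78) had close values in the 2 genotypes, and the differences did not pass (adjusted p = 0.296, 0.93 and 0.473, edgeR).

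**Figure D2:**
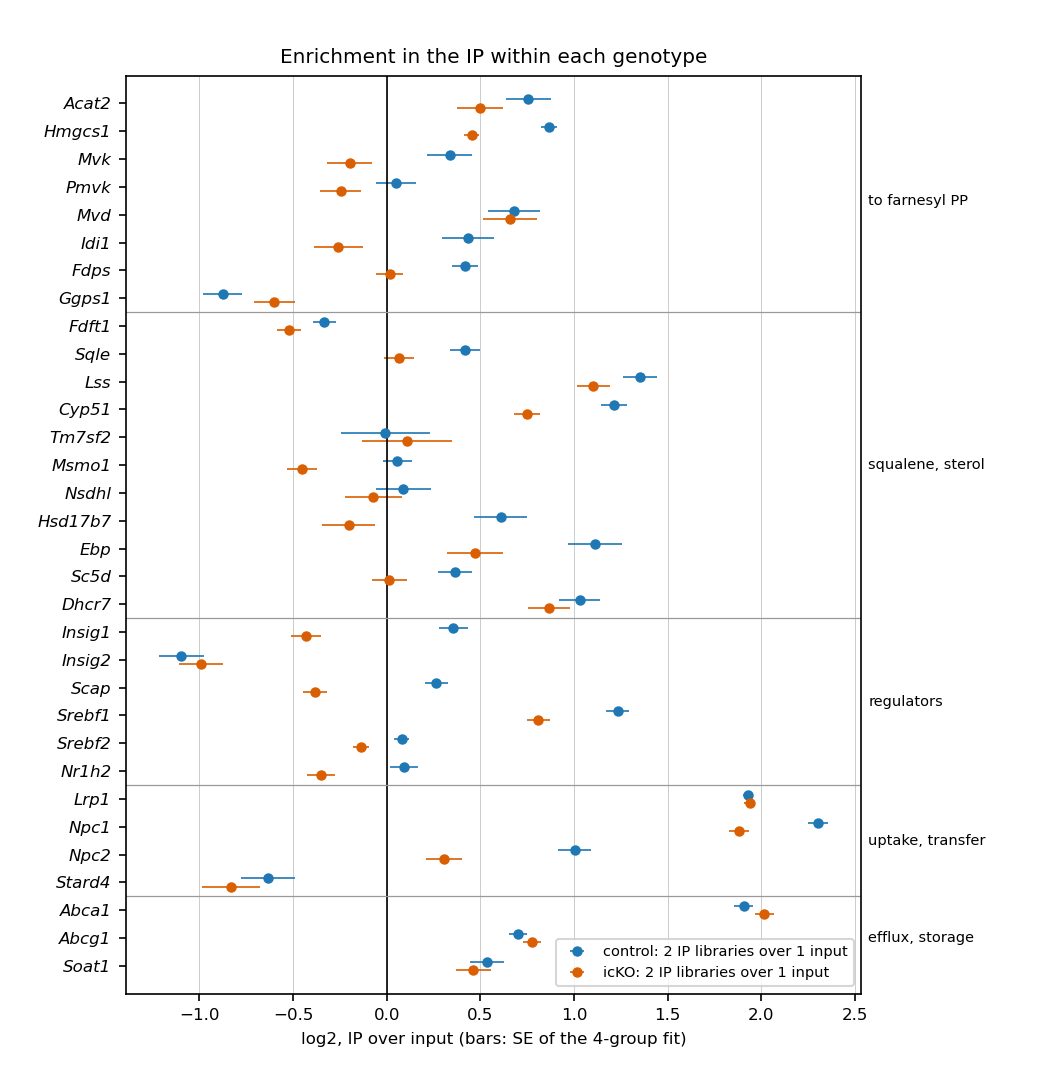
log2 of IP over input for each of the 32 genes within control (blue) and icKO (orange), each from 2 IP libraries and 1 input, with SE from the 4-group fit. Orange points lie left of blue ones for most synthesis genes and regulators, and the points of Lrp1, Abca1 and Abcg1 nearly coincide.

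The icKO and control IP libraries were then compared, to ask how the genes on tagged ribosomes differed between the genotypes. Of the 32 genes, 16 fell and 1 rose in the icKO IP, with a median log2 of -0.15 against 0.00 over all genes tested, except that scaling the libraries to mature oligodendrocyte markers, which adds 0.68 to every gene's log2, left 0 falling and 30 rising. Over 15069 genes tested, 25.2% fell and 22.1% rose, 47.2% in all (edgeR's quasi-likelihood F test, Benjamini-Hochberg adjusted p under 0.05). That background takes in genes with fewer counts than the members. Among genes with a mean of at least 5 CPM, as all members had, 3337 of 11512 fell and 3287 rose. Calls were 46.7% rises over all genes with TMM, 32.6% with library totals, 29.7% when scaled to other-cell markers, which moved the median of all genes by -0.10, and 99.1% when scaled to mature oligodendrocyte markers. With the latter, 12667 of the 15069 genes rose and 118 fell. The 2 libraries of each group did not overlap in 22 members that were lower in icKO and 3 that were higher, against 36.9% and 35.2% of all genes. Summed mature oligodendrocyte markers were at 28460 and 28630 CPM in the control IPs and 17790 and 17700 CPM in the icKO IPs, and summed pericyte and smooth muscle markers at 1867 and 1882 against 979 and 996 CPM. The part of these cells in the members' changes was not tested. The changes that follow are those with TMM.

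Of 6 regulators 5 fell under TMM (median -0.34), where 25.2% of all genes fell, and under mature oligodendrocyte scaling all 6 were above 0. Insig1 (chromosome 5, 28071363 to 28078662) was at 55.2 and 55.4 CPM in the control IPs and 38.9 and 37.0 CPM in the icKO IPs, with 43.2 and 51.1 CPM in the control and icKO inputs. Both icKO IP libraries were below both control IP libraries, and below both inputs. The log2 change in the IP was -0.54 ± 0.07 (SE, adjusted p = 2.63e-08, edgeR's quasi-likelihood F test). Srebf1 (chromosome 11, 60199089 to 60222581) was at 139 and 141 CPM in the control IPs and 96.9 and 103 CPM in the icKO IPs, against 59.6 and 57.0 CPM in the control and icKO inputs. It changed by -0.49 ± 0.04 (adjusted p = 4.2e-11, edgeR), and its IP groups did not overlap. Scap (chromosome 9, 110333288 to 110384950) was at 104 and 114 CPM in the control IPs and 83.5 and 76.1 CPM in the icKO IPs, against 90.5 and 104 CPM in the inputs, a change of -0.44 ± 0.05 (adjusted p = 1.81e-08, edgeR).

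Srebf2 (chromosome 15, 82147181 to 82205379) was at 236 and 237 CPM in the control IPs, 203 and 205 CPM in the icKO IPs, and 224 CPM in each input. Its log2 change was -0.21 ± 0.03 (adjusted p = 2.62e-06, edgeR), and the icKO IPs lay below the inputs too. Nr1h2, the LXR-beta receptor that senses oxysterols, was at -0.23 ± 0.06 (adjusted p = 0.00305, edgeR), and at -0.17 with an adjusted p of 0.0588 without icKO IP replicate 2. Insig2, the paralog of Insig1 that is not under the same SREBP control, was at 12.7 and 14.0 CPM in the control IPs and 16.2 and 14.5 CPM in the icKO IPs, against 28.7 and 30.6 CPM in the inputs. The icKO libraries were the higher ones, but the log2 change of 0.20 ± 0.12 did not pass (adjusted p = 0.157, edgeR).

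**Figure D3:**
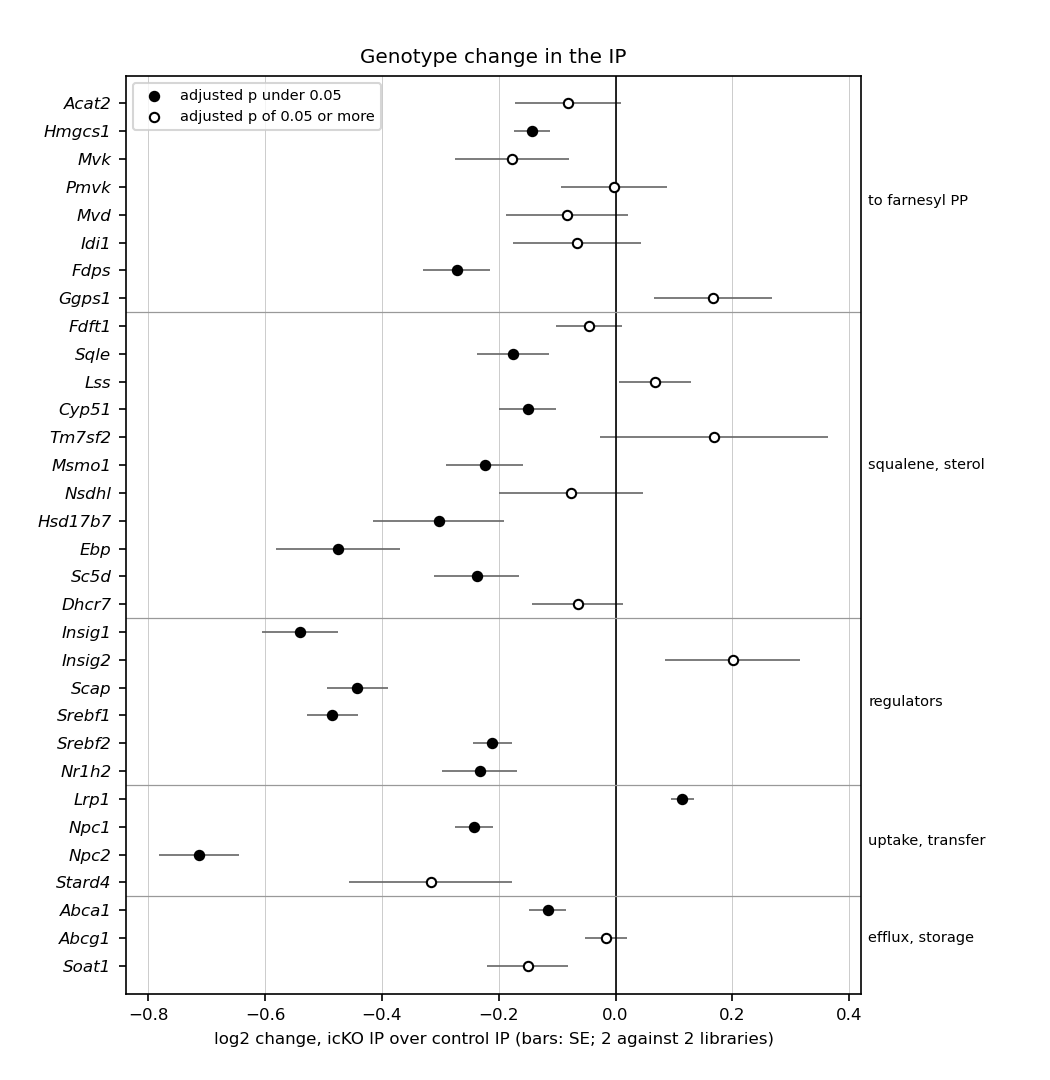
log2 change of each of the 32 genes between icKO IP and control IP (2 libraries each, TMM scaling, bars are SE); filled points have an adjusted p under 0.05 and open points do not. Of the filled points 16 lie left of 0 and 1, Lrp1, to the right, and scaling to mature oligodendrocyte markers would move every point right by 0.68.

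Of 19 synthesis enzymes, 8 fell and 0 rose under TMM (median -0.08), where 25.2% of all genes fell and 22.1% rose. When scaled to mature oligodendrocyte markers 18 rose, as did 12667 of all 15069 genes. The 8 became 5 without control IP replicate 2 or without icKO IP replicate 1, and the median was -0.15 when replicate 2 of either IP group was left out, -0.17 with library totals and -0.19 when scaled to other-cell markers. Ebp (X chromosome, 8185329 to 8193512) had the largest fall, from 23.4 and 19.8 CPM in the control IPs to 15.7 and 15.2 CPM in the icKO IPs, against 9.95 and 11.1 CPM in the inputs. Its log2 change was -0.48 ± 0.11 (adjusted p = 4.06e-04, edgeR). Hsd17b7 was at 16.4 and 16.2 CPM in the control IPs and 12.9 and 13.5 CPM in the icKO IPs, and 10.7 and 15.2 CPM in the control and icKO inputs. Its change of -0.30 ± 0.11 had an adjusted p of 0.0261 (edgeR), which became 0.0868 with DESeq2 and 0.0651 to 0.124 without 1 of control IP replicate 1 or 2 or icKO IP replicate 1. The groups did not overlap for either gene.

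Hmgcs1 fell by less, from 296 CPM in both control IPs to 271 and 264 CPM in the icKO IPs (-0.14 ± 0.03, adjusted p = 2.6e-04, edgeR), against 162 and 195 CPM in the inputs. Fdps, the farnesyl pyrophosphate synthase (-0.27 ± 0.06), Sc5d, the lathosterol desaturase (-0.24 ± 0.07), Msmo1, the methylsterol oxidase (-0.22 ± 0.07), Sqle (-0.18 ± 0.06) and Cyp51 (-0.15 ± 0.05) made up the other falls. Of these, Sc5d did not pass without control IP replicate 2 (adjusted p = 0.11, edgeR), Msmo1 without control IP replicate 1 (0.0777) or icKO IP replicate 1 (0.089), and Cyp51 without icKO IP replicate 2 (0.0903). Sqle lost its call with DESeq2 (0.0584) and without control IP replicate 2 (0.302) or icKO IP replicate 1 (0.0971).

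The 11 enzymes that did not pass lay between -0.18 and 0.17. Below 0 were Mvk, the mevalonate kinase (-0.18), Mvd (-0.08), Acat2 (-0.08), Nsdhl, a sterol decarboxylase (-0.08), Idi1, the isopentenyl pyrophosphate isomerase (-0.07), Dhcr7 (-0.07), Fdft1 (-0.05) and Pmvk, the phosphomevalonate kinase (-0.0030). Above 0 were Tm7sf2 (0.17), Ggps1 (0.17) and Lss (0.07). Their SE ran from 0.06 for Fdft1 to 0.20 for Tm7sf2, the member with the fewest counts, and a change as small as that of Hmgcs1 was not detectable in Tm7sf2. By stage, 2 of 8 enzymes up to geranylgeranyl pyrophosphate fell (median -0.08), near the 25.2% of all genes tested that fell. Of squalene and sterol formation, 6 of 11 fell (median -0.15). That difference was not tested.

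In uptake and transfer, directions were mixed under TMM. Npc2 (chromosome 12, 84754562 to 84773152) was at 53.4 and 53.5 CPM in the control IPs and 33.7 and 31.4 CPM in the icKO IPs, against 26.7 and 26.3 CPM in the control and icKO inputs. Its icKO IP libraries lay between the control IPs and the inputs, and its fall was the largest of all members (-0.71 ± 0.07, adjusted p = 2.01e-10, edgeR). It was also the 1 member not above 0 when scaled to mature oligodendrocyte markers (-0.03, adjusted p = 0.676, edgeR). Npc1 fell by 0.24 on the log2 scale (-0.24 ± 0.03, adjusted p = 1.68e-07, edgeR). Lrp1 rose by 0.11 ± 0.02 (adjusted p = 1.45e-05, edgeR), but its value was 0.03 with library totals (0.253), 0.0085 when scaled to other-cell markers (0.79) and -0.12 with an offset for exonic length (1.58e-05), which reversed it. Its summed exonic length is 17.7 kb, the longest of the members. Stard4 was at -0.32 ± 0.14 and did not pass (adjusted p = 0.0614, edgeR). It passed as lower under 5 alternatives (adjusted p = 0.0148 to 0.0486) and as higher when scaled to mature oligodendrocyte markers (0.37, adjusted p = 0.018, edgeR).

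Of the 3 efflux and storage genes 1 fell. Abca1 was at -0.12 ± 0.03 (adjusted p = 0.00274, edgeR), a fall under TMM that was 0.57 when scaled to mature oligodendrocyte markers. Abcg1 (chromosome 17, 31057675 to 31117988) was at 171 CPM in both control IPs and 168 and 169 CPM in the icKO IPs, against 105 and 98.5 CPM in the inputs, and its log2 change of -0.02 ± 0.04 did not pass (adjusted p = 0.734, edgeR). Soat1 was at -0.15 ± 0.07 and did not pass (adjusted p = 0.0724, edgeR). Both passed as lower with library totals (Abcg1 -0.10, adjusted p = 0.0177; Soat1 -0.24, 0.00503) and with other-cell markers (-0.12, 0.00822; -0.26, 0.00316, edgeR), and Soat1 also with the length offset (-0.26, 0.00256).

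The 2 inputs were set side by side to see whether whole homogenate moved alike. With 1 library each there is no test, and intervals cover counting error only. Of the 32 genes 24 had a log2 ratio of icKO over control input above 0 (median 0.13). The 95% interval lay wholly above 0 for 16 and wholly below 0 for 2, against 16.7% and 12.9% of all genes. For synthesis enzymes 17 of 19 ratios were above 0 (median 0.17), 11 with intervals above 0. The share of all genes with a ratio above 0 was not counted, so the 24 and the 17 have no background beside them. The largest ratios were those of Idi1 (0.62, interval 0.41 to 0.84), Hsd17b7 (0.50, 0.26 to 0.76), Mvk (0.35, 0.15 to 0.55), Cyp51 (0.31, 0.18 to 0.45) and Lss (0.31, 0.15 to 0.48). Idi1 was at 14.1 and 21.7 CPM in the control and icKO inputs, 20.7 and 17.5 CPM in the control IPs, and 16.6 and 19.7 CPM in the icKO IPs, so that its IP groups overlapped. All 3 efflux and storage genes were below 0, and for Abca1 (-0.23, interval -0.34 to -0.12) and Abcg1 (-0.10, -0.18 to -0.01) the interval excluded 0. In the inputs, 11 of 12 astrocyte markers had ratios above 0 (median 0.14), their summed level was 5806 CPM in control and 6226 CPM in icKO, and 10 of 12 precursor markers (0.13) and 10 of 12 neuron markers (0.05) were above 0. Endothelium markers were below 0 in 10 of 10 (-0.50, summed 132 CPM in control and 99.4 CPM in icKO), and choroid plexus and ependyma markers were above 0 in 4 of 6 (0.44, summed 490 and 570 CPM). The part of these in the input ratios was not tested.

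**Figure D4:**
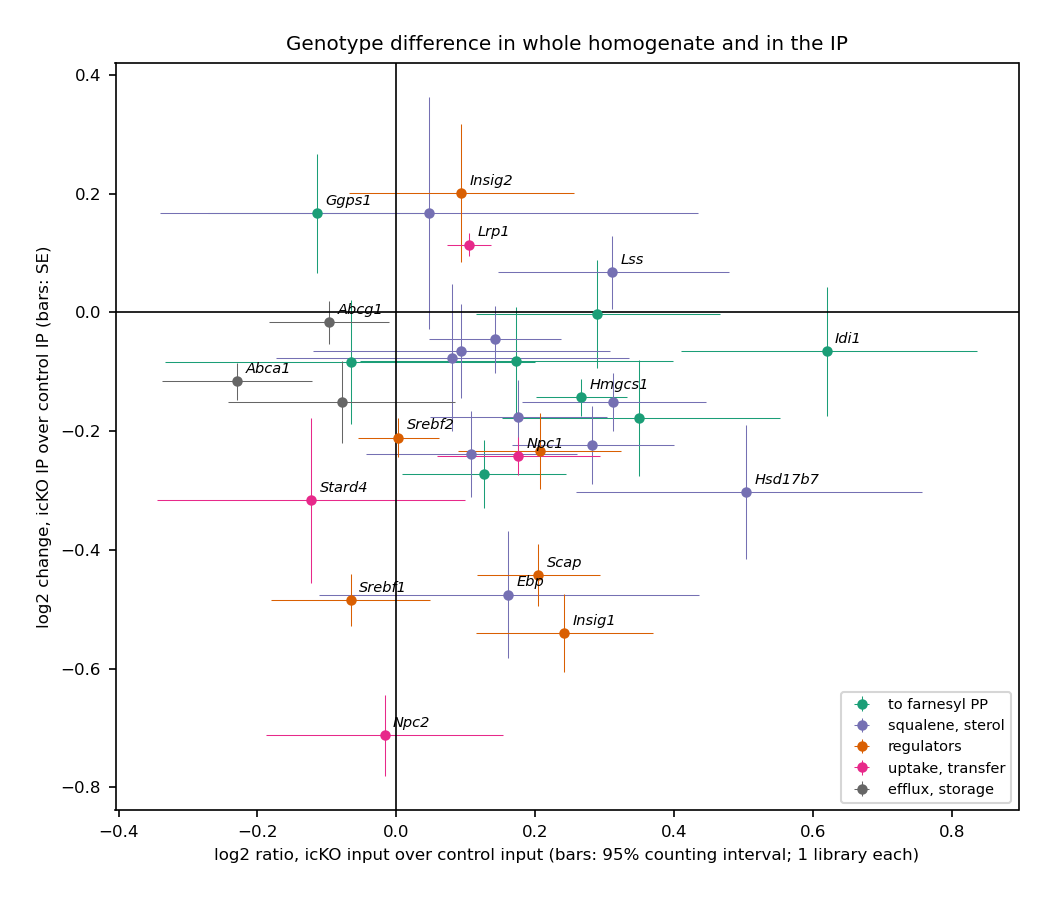
Each gene's log2 ratio between the inputs (x axis, 1 library each, bars are 95% counting intervals) against its log2 change between the IP groups (y axis, 2 libraries each, TMM scaling, bars are SE), coloured by role. Most synthesis genes and Insig1 and Scap lie in the lower right, above 0 in the inputs and below 0 in the IP, and Abca1 lies below 0 on both axes; with mature oligodendrocyte scaling every point but Npc2 would lie above 0 on the y axis.

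The difference between the genotype change in the IP and that in input was tested in the 4-group fit. Of the 32 genes, 17 had a lower change in the IP than in input and 0 a higher one (median -0.32, against -0.01 over all genes) under TMM, while scaling to mature oligodendrocyte markers, added after seeing the data, gave 0 lower and 23 higher (median 0.37, against 0.67 over all genes). With that scaling 10333 of 15936 genes were higher and 59 lower. Over 15936 genes, 13.9% were lower and 9.67% higher under TMM (edgeR's quasi-likelihood F test, Benjamini-Hochberg adjusted), 23.6% in all. Among genes with a mean of at least 5 CPM, 1982 of 11651 were lower and 1840 higher. DESeq2, which tested 9394 genes and gave no adjusted p for some members, called 8 lower and 0 higher. At an unadjusted p under 0.05 in edgeR the number higher was also 0. Hsd17b7 differed most (-0.81 ± 0.20, adjusted p = 0.00283, edgeR), then Insig1 (-0.79 ± 0.11), Npc2 (-0.70 ± 0.13), Idi1 (-0.69 ± 0.19), Scap (-0.65 ± 0.09) and Ebp (-0.64 ± 0.21). DESeq2 did not call Hsd17b7 (adjusted p = 0.0732), Idi1 (0.111) or Ebp (0.179), and Ebp was also lost without control IP replicate 1 (0.0798, edgeR). For Idi1 the input ratio made up nearly all of it, and for Npc2 the IP change did. The 17 included 10 synthesis enzymes and 5 of 6 regulators, and 0 of the 3 efflux and storage genes. In the same comparison 19 of 20 mature oligodendrocyte markers were lower (median -0.73), as were 9 of 12 precursor markers (-0.56) and 8 of 10 pericyte and smooth muscle markers (-0.88), and their part in the members' differences was not tested. Each value leans on 2 lone inputs, whose own spread was not measured.

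Other genes of the pathway, from a second fixed list of 46 symbols of which 43 were tested between genotypes, moved in both directions. In the icKO IP 15 of the 43 fell and 5 rose (median -0.08), against 25.2% and 22.1% of all genes. The largest falls were Nr1h3, the LXR-alpha receptor (-1.07 ± 0.19), Cyb5r3, a reductase that feeds electrons to sterol and fatty acid enzymes (-0.73 ± 0.06), and Abca2, a lysosomal transporter abundant in oligodendrocytes (-0.51 ± 0.02). The largest rises were Stard5, a sterol carrier (0.57 ± 0.18, and 0.52 with adjusted p = 0.0533 in edgeR without control IP replicate 2), Gramd1a, an Aster protein that moves cholesterol from the plasma membrane (0.51 ± 0.05), and Lrp8, a reelin and lipoprotein receptor (0.46 ± 0.05). Nr1h3 was at 7.95 CPM in the control and 3.79 CPM in the icKO IPs on average, so that both LXR genes were lower in icKO under TMM. Scaled to mature oligodendrocyte markers, Nr1h3 was at -0.39 (adjusted p = 0.0595) and Cyb5r3 at -0.04 (0.502, edgeR), and Abca2 turned to 0.17. By role, 8 of 17 uptake and transfer genes of this list fell and 5 rose, 4 of 12 regulators fell, and 2 of 7 tested efflux and oxysterol genes fell.

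Several members overlap other genes, and the strand setting of the counting was not stated, so their counts are uncertain. Acat2 also has a near copy, Acat3. Tm7sf2 overlaps Vps51 and Fdps overlaps Gm43738, each on its own strand, and Npc1, Cyp51, Fdft1, Ggps1, Mvd and Srebf1 overlap coding genes on the other strand. Ctsb, the neighbour of Fdft1, was at -0.30 between the IP groups, and Akap9, the neighbour of Cyp51, was at 0.35. Arid4b, the neighbour of Ggps1, was at 0.23, Rai1, that of Srebf1, at 0.30, and Vps51, that of Tm7sf2, at -0.05. The part of these neighbours in the members' values was not tested. Across the 32 genes, which are not independent and share libraries, Spearman's rho was -0.04 between genotype change and exonic length and -0.17 between genotype change and enrichment in the control IP, given as a description. Of the 15 members higher in the IP than in input 8 fell in icKO, of the 13 that were not called 8 fell, and of the 4 that were lower 0 fell, where over all genes 27.4% of those higher and 28.4% of those lower fell.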

How the data were processed

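RNA on HA-tagged ribosomes and homogenate RNA were sequenced in 6 libraries. The submitters' processing notes name Trimmomatic 0.39, STAR 2.7.10b and mm10. For the counter, annotation and strand setting, the sources used here give nothing. The authors deposited raw counts per gene. Of 24421 rows, 10 without input values were left out. Totals of 18968806 to 23930812 put 3 counts at 0.125 to 0.158 CPM.

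Counts were tested with edgeR 4.0.16 (R 4.3.3; TMM, filterByExpr, two-sided quasi-likelihood test, Benjamini-Hochberg over all genes tested, threshold 0.05); SE is the log2 change over the root of F. Genotype used the 4 IP libraries, IP against input all 6 with genotype as a term, and the difference of changes 4 groups. Inputs have a log2 ratio with prior count 2 and an exact binomial interval. DESeq2 1.42.0, other scalings and filters, an exonic length offset (GENCODE) and leaving out libraries were alternatives; marker scaling of the difference was added after seeing the data. On simulated data, 89% of genes changed by a log2 of 0.5 were recovered in the genotype comparison (15014 genes), 91% for IP against input (15274) and 67% for the difference (15545). The simulation used the same low spread in every comparison and changed only genes with enough counts. In the data the common coefficient of variation was 3.01% for genotype and for the difference, but 8.61% for IP against input. The 91% therefore holds only for the lower spread, and changes smaller than 0.5 were not simulated.

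The members, lists and tests were chosen with earlier results of these data known. By rule, all members are named, with values per library for called genes with a log2 change over 0.3, for 5 regulators and for Abca1 and Abcg1, and the 3 largest rises and falls of the second list; values per library for Npc1, Lrp1, Hmgcs1 and Idi1 were added after they were seen. Promoter windows are from RefSeq (GRCm38.p6).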

Additional observations from a re-analysis of the deposited data

Results flagged for a closer look

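For 17 members the genotype change in the IP differed from that in the inputs by the test of the difference itself (edgeR's quasi-likelihood test, adjusted p under 0.05), and DESeq2 called 8. Scaled to mature oligodendrocyte markers, a setting added after seeing the data, 0 of the 32 were lower and 23 were higher, where 10333 of 15936 genes were higher. Differences are log2 changes in the IP minus those in input. Among synthesis enzymes they were -0.81 for Hsd17b7, -0.69 for Idi1, -0.64 for Ebp, -0.53 for Mvk, -0.51 for Msmo1, -0.47 for Cyp51, -0.41 for Hmgcs1, -0.40 for Fdps, -0.35 for Sqle and -0.35 for Sc5d. Among regulators they were -0.79 for Insig1, -0.65 for Scap, -0.44 for Nr1h2, -0.42 for Srebf1 and -0.22 for Srebf2. Among uptake and transfer genes they were -0.70 for Npc2 and -0.42 for Npc1. Each rests on 1 input per genotype.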

How the results depend on the processing

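Scaling to mature oligodendrocyte markers, which assumes that those markers did not change, moved the genotype result most: 30 members higher and 0 lower, 18 synthesis enzymes higher and 0 lower, and medians of 0.53 for all members and 0.60 for synthesis. The same scaling called 12667 of 15069 genes higher and 118 lower, with a median of 0.68 over all genes. Under it log2 values turned to 0.60 for Acat2, 0.54 for Hmgcs1, 0.50 for Mvk, 0.68 for Pmvk, 0.60 for Mvd, 0.62 for Idi1, 0.41 for Fdps, 0.64 for Fdft1, 0.51 for Sqle, 0.53 for Cyp51, 0.46 for Msmo1, 0.61 for Nsdhl, 0.38 for Hsd17b7, 0.21 for Ebp, 0.44 for Sc5d, 0.62 for Dhcr7, 0.14 for Insig1, 0.24 for Scap, 0.20 for Srebf1, 0.47 for Srebf2, 0.45 for Nr1h2, 0.44 for Npc1, 0.37 for Stard4, 0.57 for Abca1, 0.67 for Abcg1, 0.53 for Soat1, 0.17 for Abca2 and 0.45 for Ank3. With library totals, markers of other cell types or the length offset, 0 members were higher between genotypes and 20, 21 and 19 were lower. Over the 15069, 15069 and 14461 genes tested, 4980, 5172 and 3378 were lower and 2408, 2180 and 2826 higher. The members' genotype median was -0.24 with library totals, -0.26 with markers of other cell types, -0.17 with no filter, -0.12 with a mean of at least 5 CPM and -0.17 to -0.15 with 1 library left out, which gave 13 to 15 members and 5 to 7 synthesis enzymes lower. The length offset turned Acat2 to 0.044, Pmvk to 0.19, Mvd to 0.10, Idi1 to 0.0027, Lss to -0.062, Nsdhl to 0.028 and Lrp1 to -0.12. Lss was at -0.019 with library totals and -0.038 with markers of other cell types, and with at least 5 CPM Pmvk was at 0.028 and Abcg1 at 0.014. With 1 library left out, values crossed 0 for Pmvk (-0.048 to 0.041), Idi1 (-0.19 to 0.053), Lss (-0.036 to 0.17), Tm7sf2 (-0.13 to 0.51) and Dhcr7 (-0.15 to 0.018).

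For IP against input, leaving out 1 library gave 4 to 10 members lower, and 7 to 13 synthesis enzymes higher and 2 to 4 lower. Within icKO in the 4-group fit 10 members and 4 synthesis enzymes were lower, Mvk was at -0.20, Idi1 at -0.26, Nsdhl at -0.072 and Hsd17b7 at -0.20. Within control in the same fit 13 synthesis enzymes were higher, Pmvk was at 0.051, Tm7sf2 at -0.0069, Msmo1 at 0.057, Insig1 at 0.36, Scap at 0.27, Srebf2 at 0.080 and Nr1h2 at 0.092. With library totals Mvk was at -0.016, Idi1 at -0.0065, Tm7sf2 at -0.026 and Nsdhl at -0.070, and with DESeq2 Nsdhl was at -0.0022. With 1 library left out, ranges crossing 0 were -0.20 to 0.33 for Mvk, -0.25 to 0.048 for Pmvk, -0.26 to 0.43 for Idi1, -0.088 to 0.18 for Tm7sf2, -0.46 to 0.054 for Msmo1, -0.076 to 0.086 for Nsdhl, -0.21 to 0.61 for Hsd17b7, -0.43 to 0.35 for Insig1, -0.39 to 0.26 for Scap, -0.14 to 0.077 for Srebf2 and -0.36 to 0.089 for Nr1h2.

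For the difference of changes, DESeq2, which tested 9394 genes and gave no adjusted p for some members, called 8 members and 3 synthesis enzymes lower. The median was -0.39 with library totals, -0.28 with at least 5 CPM and -0.36 to -0.31 with 1 library left out. The 2 marker scalings were added after seeing the data. Scaled to mature oligodendrocyte markers, which moved the median of all genes to 0.67, 23 members and 13 synthesis enzymes were higher and 0 lower, with medians of 0.37 and 0.34, and values turned to 0.43 for Acat2, 0.28 for Hmgcs1, 0.16 for Mvk, 0.39 for Pmvk, 0.67 for Mvd, 0.29 for Fdps, 0.50 for Fdft1, 0.34 for Sqle, 0.44 for Lss, 0.22 for Cyp51, 0.18 for Msmo1, 0.53 for Nsdhl, 0.047 for Ebp, 0.34 for Sc5d, 0.53 for Dhcr7, 0.039 for Scap, 0.27 for Srebf1, 0.47 for Srebf2, 0.25 for Nr1h2, 0.27 for Npc1, 0.49 for Stard4 and 0.61 for Soat1. With markers of other cell types the median was -0.37 and Lrp1 was at -0.041. Lrp1 was at -0.0021 with DESeq2 and -0.064 with library totals, and Mvd at 0.019 with at least 5 CPM. Ranges with 1 library left out crossed 0 for Mvd (-0.11 to 0.062), Tm7sf2 (-0.18 to 0.46) and Lrp1 (-0.0096 to 0.023). Rises were 41.0% of calls over all genes with TMM, 28.0% with library totals and 99.4% with mature oligodendrocyte markers, where 10333 of 15936 genes were higher. The causes of these shifts were not tested. Replicate numbers did not pair the IP libraries (correlation of deviations -0.0031 over 15069 genes), and a replicate block gave 16 members lower, 1 higher, 8 synthesis enzymes lower, 0 higher and a median of -0.15, changing 0 of 32 calls. Lone inputs and 2 libraries per IP group limit precision.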
